A study of Rattus norvegicus with 6 samples.

Results

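The interleukin 1 system was followed through 7 genes: the ligands Il1a, Il1b and Il18, the receptor antagonist Il1rn, the signalling receptor Il1r1, the decoy receptor Il1r2 and the activating protease Casp1. The genes were chosen by name, and every probe set that the platform annotation maps to exactly 1 of these symbols was taken, which gave 10 of 31099 probe sets on the array and 7 of 14217 measured genes. Il1a was read by 2 probe sets, Il1r1 by 3 and each other gene by 1.

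Expression was measured on 6 rat expression arrays, 3 for each of 2 clonal cell strains of the Fischer 344 rat background. Both strains were derived from tumours that grew in young adult male rats after BDEsp cells, rat cholangiocytes (bile duct lining cells) that had transformed spontaneously, were inoculated into the bile duct. BDEsp-TDECC (TDECC) is a cholangiocarcinoma cell strain and BDEsp-TDESM (TDESM) is a cancer-associated fibroblastic strain which the labels describe by overexpressed Acta2, a smooth muscle actin found in myofibroblasts. The labels of all 6 arrays alike name an organotypic co-culture in rat collagen type I gel and the TGFb inhibitors SB 431542 and LY2157299, without saying which cultures held which cells or received an inhibitor, so no treatment was compared. Each strain is 1 clone. No label ties the 3 arrays of a strain to different cultures, and the p-values therefore speak only to array-to-array spread, which can be technical.

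Interleukin 1 alpha and interleukin 1 beta act through the same receptor, which pairs with an accessory protein and passes the signal through Myd88 and the Irak kinases to NF-kB. Interleukin 1 beta and interleukin 18 are made as inactive precursors that caspase-1 cuts inside inflammasomes, whereas the interleukin 1 alpha precursor is already active and is released from damaged or stressed epithelial cells as an alarm signal. The antagonist occupies the receptor without signalling, and the decoy receptor binds ligand without a signalling domain. In tumours, interleukin 1 from cancer cells is known to drive an inflammatory state in neighbouring fibroblasts.

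Acta2, the gene that the labels name for TDESM, read 6.61 in TDECC and 11.6 in TDESM, a difference of -4.99. Further markers of the cell types were taken from lists and not from the labels. Of 13 measured bile duct and epithelial markers, 13 were higher in TDECC (Krt19 by 10.76, Tspan8 by 10.41 and Krt18 by 10.21 on the log2 scale), and of 16 fibroblast markers 13 were higher in TDESM (Col1a2, Postn and Fn1, with TDECC minus TDESM at -10.72, -10.41 and -9.67). Values are log2 signals summarised per probe set with RMA, a method that brings all arrays to one distribution, and no detection calls came with them, so no gene was called absent. Probe sets of a bacterial control transcript that is not among the added controls read 2.80 to 3.53 on TDECC arrays and 2.87 to 3.23 on TDESM arrays. The 24 probe sets of the added poly-A controls averaged 7.22 to 7.65 on TDECC arrays and 8.34 to 9.03 on TDESM arrays. Centring each array on those controls moved the median difference of all genes by 1.22 toward TDECC, so differences here are stated relative to the median gene, and signs that turn under that centring are named. Fewer cells of a type and less RNA per cell cannot be told apart in such bulk samples.

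Of the 7 genes, Il1a and Il1rn were higher in TDECC, Il1r1 was lower, and Il1b, Il1r2, Il18 and Casp1 did not pass an adjusted p of 0.05 in limma, a linear model fitted over all genes with Benjamini-Hochberg adjustment. Among all 14217 genes 42.7% passed, 20.6% higher and 22.1% lower in TDECC, so 3 of 7 is near the background share. With poly-A centring 10873 genes were higher and 898 lower. All 3 also differed by at least 1 log2 unit, which 25.5% of all genes did while passing. The groups did not overlap for 5 of the 7 genes, against 53.6% of all genes. The median difference, TDECC minus TDESM, was 0.66 over the 7 genes and -0.0033 over all genes. An exact permutation test of a single gene cannot go below p = 0.1 with 3 arrays against 3, two-sided; that value was reached by the 5 genes without overlap.

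**Figure D1:**
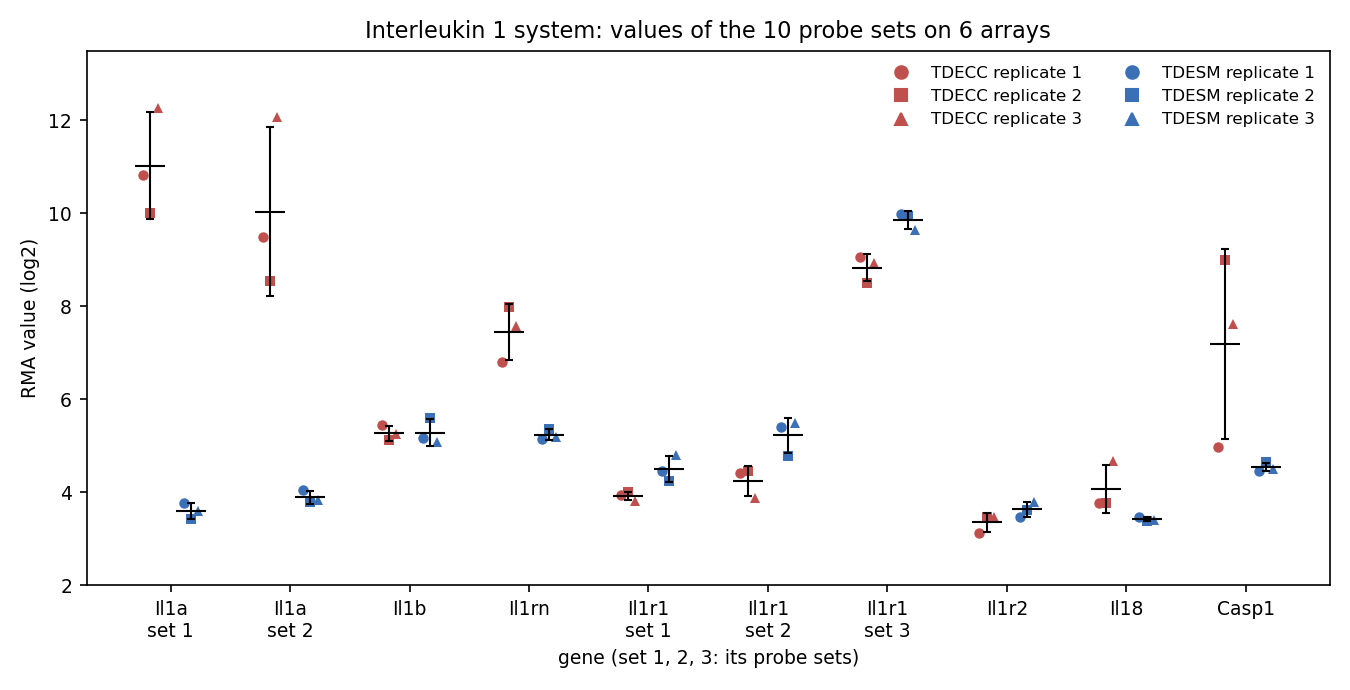
RMA values (log2) of the 10 probe sets of the interleukin 1 system on each of 6 arrays, with the mean and SD of 3 arrays per strain as black bars. Il1a stood at 10 or above on each TDECC array by its brighter probe set and at 3.78 or below on each TDESM array, while Casp1 ranged from 4.98 to 8.99 within TDECC.

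Il1a, the alarm cytokine of epithelial cells, had the largest difference of the 7. Its probe set 1368592_at read 10.82, 10 and 12.27 on TDECC replicates 1, 2 and 3 and 3.78, 3.43 and 3.59 on the TDESM replicates. The TDESM values lie close to those of the control transcript that was not added, and the gap between the lowest TDECC and the highest TDESM array was 6.22. The difference was 7.43 (SE 0.52, 95% confidence interval 6.19 to 8.67, n = 3 each, limma adjusted p = 3.65e-05). As measured this is 172-fold, but with TDESM near the level of a transcript that was not added the fold is no exact ratio of RNA levels. The second probe set, 1371170_a_at, read 9.50, 8.55 and 12.07 against 4.06, 3.79 and 3.83, a difference of 6.15 (SE 0.81, adjusted p = 0.00100 in the limma fit over 31042 probe sets, of which 36.9% passed). Both probe sets placed the TDECC arrays in the same order, with replicate 3 highest and replicate 2 lowest.

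Il1b, the other ligand of the same receptor and the direct neighbour of Il1a on chromosome 3, read 5.44, 5.12 and 5.26 in TDECC and 5.17, 5.61 and 5.08 in TDESM. The groups overlapped, and the difference was -0.01 (95% confidence interval -0.43 to 0.41, limma adjusted p = 0.963). The sign of so small a value turned when single arrays were left out. With poly-A centring the Il1b difference was 1.21 and passed (limma adjusted p = 0.00176). That value is the shift of 1.22 that this centring gives every gene, added to a difference near 0.

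The upstream sequences of Il1a and Il1b are shown because adjacent genes for ligands of one receptor differed so much in these strains, and that of Il1rn because it is the other member higher in TDECC. Each run is the 250 bases before the annotated start in RefSeq, assembly GRCr8, 5′ to 3′ on the gene's strand: chr3:136990018-136990267 (minus strand) for Il1a, chr3:137036582-137036831 (minus strand) for Il1b and chr3:27520072-27520321 (plus strand) for Il1rn, whose start in that table lies inside the annotated gene. Capitals mark matches, on either strand, to the AP-1 motif TGANTCA or to the TATA box motif TATAAA.
Il1a: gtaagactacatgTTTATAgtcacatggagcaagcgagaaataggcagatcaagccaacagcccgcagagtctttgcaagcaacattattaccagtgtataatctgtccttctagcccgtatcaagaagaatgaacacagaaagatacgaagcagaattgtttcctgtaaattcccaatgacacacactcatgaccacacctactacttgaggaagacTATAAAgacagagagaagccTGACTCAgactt
Il1b: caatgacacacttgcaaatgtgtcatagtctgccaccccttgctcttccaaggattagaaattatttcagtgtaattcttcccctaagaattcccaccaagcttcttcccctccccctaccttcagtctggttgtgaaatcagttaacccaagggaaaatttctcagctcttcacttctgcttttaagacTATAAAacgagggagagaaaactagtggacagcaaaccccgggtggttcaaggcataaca
Il1rn: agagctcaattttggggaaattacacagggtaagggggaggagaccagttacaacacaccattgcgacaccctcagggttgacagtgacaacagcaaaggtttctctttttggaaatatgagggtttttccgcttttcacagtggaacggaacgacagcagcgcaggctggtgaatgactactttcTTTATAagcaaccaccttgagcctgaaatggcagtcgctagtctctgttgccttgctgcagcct

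Promoters of 6 of the 7 genes were matched by symbol. The AP-1 motif stood in the Il1a window alone among them, at bases -12 to -6 before the start, and 6.34% of 33469 promoter windows of this length hold it. The TATA box motif stood in the windows of Il1a (bases -32 to -27 and, on the opposite strand, -237 to -232), Il1b (-60 to -55) and, on the opposite strand, Il1rn (-64 to -59), against 12.9% of all windows. A match to the NF-kB consensus stood in the Il1r1 window alone, at bases -135 to -126, against 6.33% of all windows, and none of the 6 windows held the C/EBP motif TTGCNNAA, against 9.22%. The motifs do not overlap each other in these windows, and a match is a run of letters and not a measured site.

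Il18, the third ligand, acts through a receptor of its own and is cut by caspase-1 like interleukin 1 beta. It read 3.78, 3.77 and 4.68 in TDECC and 3.47, 3.39 and 3.40 in TDESM. Every TDECC array lay above the TDESM arrays, but by a gap of 0.30 at low signal, and the difference of 0.66 (SE 0.25, 95% confidence interval 0.06 to 1.26) had a limma adjusted p of 0.0773. Without TDECC replicate 1 it was 0.81 (limma adjusted p = 0.0494). Without TDECC replicate 3, the array with the highest value, it was 0.36 (limma adjusted p = 0.0454). Without any 1 of the other arrays it did not pass (limma adjusted p from 0.054 to 0.188).

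**Figure D2:**
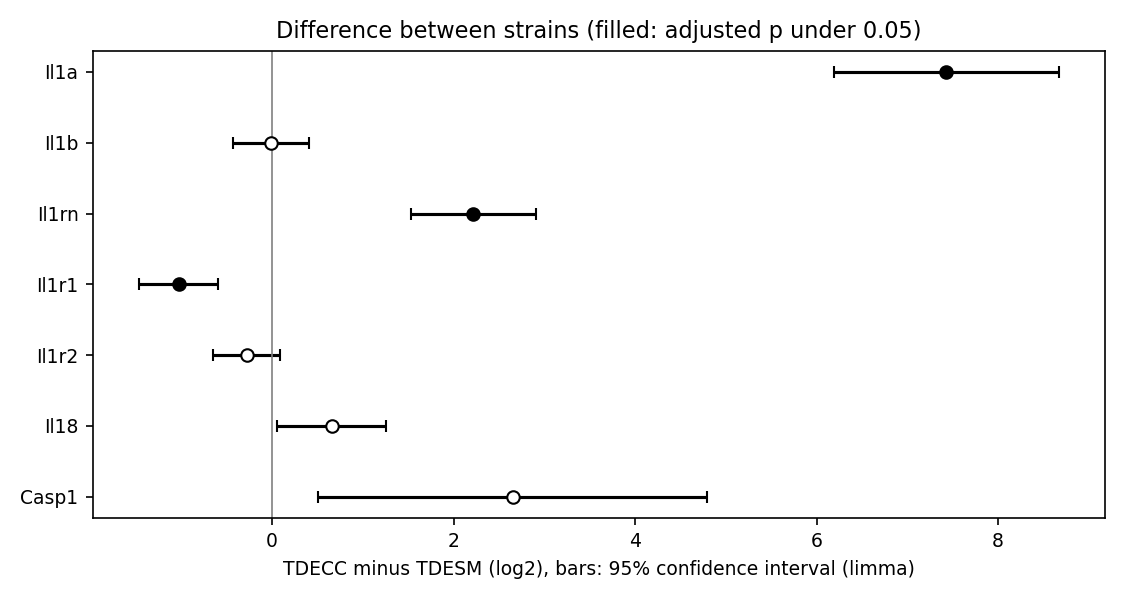
Difference between strains, TDECC minus TDESM (log2), for the 7 genes with 95% confidence intervals from limma; filled points passed an adjusted p of 0.05. Il1a lay at 7.43, Il1rn at 2.22 and Il1r1 at -1.03 (0.19 with poly-A centring), and the interval of Casp1 ran from 0.51 to 4.80.

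Casp1, the protease that activates interleukin 1 beta and interleukin 18, varied most. It read 4.98, 8.99 and 7.62 on TDECC replicates 1, 2 and 3 and 4.47, 4.65 and 4.51 on the TDESM replicates. TDECC replicate 1 was thus near the TDESM arrays, by a gap of 0.33, while replicate 2 was more than 4 log2 units above replicate 1. The SD over TDECC arrays was 2.04, larger than that of 99.6% of all genes, against 0.09 in TDESM. The difference of 2.65 (SE 0.90, 95% confidence interval 0.51 to 4.80) had a limma adjusted p of 0.0516. Without TDECC replicate 1 it was 3.76 and passed (limma adjusted p = 4.43e-04). It also passed with the dimmest 33.3% of genes left out (limma adjusted p = 0.0363). That filter used the mean over all arrays, and Casp1 stayed in through its high values on TDECC replicates 2 and 3. The pass is therefore no separate support for a difference. Without any 1 array other than TDECC replicate 1, Casp1 did not pass (limma adjusted p from 0.101 to 0.137). Without TDECC replicate 2 the difference was 1.76.

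Of 12 other measured genes of inflammasomes and their lytic output, 5 were lower in TDECC, 1 was higher and 6 did not pass (50% called, against 42.7% of all genes), with a median difference of -0.12. With poly-A centring the split turned to 8 higher and 1 lower. Pycard, the adaptor ASC that joins sensors to caspase-1, read 7.06, 6.37 and 6.08 in TDECC and 8.98, 9.01 and 9.31 in TDESM, a difference of -2.60 (SE 0.26, limma adjusted p = 2.15e-04) without overlap. Ninj1, which ruptures the membrane late in lytic cell death, differed by -1.94, Gsdmd, the pore former gasdermin D, by -1.38 and Casp4, the caspase of the non-canonical inflammasome, by -0.98. With poly-A centring Pycard was still lower and past the threshold (-1.38), Ninj1 (-0.72) and Gsdmd (-0.16) no longer passed, and Casp4 turned to 0.24. Gsdmd also did not pass without TDECC replicate 2 or any 1 TDESM replicate (limma adjusted p up to 0.116), and was -0.91 without TDECC replicate 3. Casp8, the initiator caspase of death receptors, was higher in TDECC by 1.42. Nlrp3 and 8 other listed genes, among them further sensors, were not analysed here.

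Calpains cut the interleukin 1 alpha precursor. Of 7 measured genes for its processing and release, Capn1 was higher in TDECC by 1.73 (9.66, 9.71 and 9.73 against 7.92, 7.93 and 8.06; limma adjusted p = 2.24e-05), with little spread in either strain. Capn2, the catalytic subunit of the other classical calpain, was lower by the fit, at -0.71 (limma adjusted p = 0.0315). That call was lost without any 1 TDESM replicate (limma adjusted p up to 0.103), the value was -0.47 without TDECC replicate 3, and the sign turned to 0.51 with poly-A centring. The other 5 did not pass, so 28.6% of the 7 were called, against 42.7% of all genes. Without TDECC replicate 1, 4 of the 7 genes passed, and with poly-A centring 6 were higher and 0 lower.

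Il1rn, the antagonist, read 6.80, 7.99 and 7.57 in TDECC and 5.14, 5.37 and 5.20 in TDESM. All TDECC arrays lay above all TDESM arrays by a gap of 1.43. The difference was 2.22 (SE 0.29, 95% confidence interval 1.53 to 2.90, n = 3 each, limma adjusted p = 8.27e-04), which is 4.65-fold. The gene makes secreted and intracellular forms from alternative first exons, and its single probe set gave 1 value for the gene. Il1r2, the decoy receptor, read 3.12, 3.47 and 3.47 in TDECC and 3.47, 3.63 and 3.80 in TDESM, overlapping and low in both strains. Its difference was -0.28 (95% confidence interval -0.65 to 0.09, limma adjusted p = 0.197).

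Il1r1, the receptor that signals, read far above the level of the control transcript in both strains by its brightest probe set only. That probe set, 1392946_at, read 9.06, 8.51 and 8.93 in TDECC and 9.99, 9.95 and 9.64 in TDESM. The TDECC arrays all lay below the TDESM arrays, and the difference was -1.03 (SE 0.18, 95% confidence interval -1.46 to -0.59, limma adjusted p = 0.00367), a 2.04-fold lower level in TDECC. The other probe sets read low, 1370750_a_at at 4.25 ± 0.32 against 5.22 ± 0.39 and 1369255_at at 3.92 ± 0.09 against 4.51 ± 0.28 (SD, n = 3). The probe sets thus disagree on the level of the receptor RNA. These other sets differed in the same direction, by -0.97 and -0.59 (adjusted p = 0.0183 and 0.0276 in the limma fit over probe sets). With poly-A centring the brightest probe set differed by 0.19 and did not pass, whereas centred on housekeeping genes it differed by -1.22 and passed (limma adjusted p = 6.51e-04).

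Il1rap, the accessory chain without which Il1r1 does not signal, was also lower in TDECC. It read 6.40, 7.33 and 5.55 there against 8.36, 8.39 and 8.44 in TDESM, a difference of -1.97 (SE 0.41, limma adjusted p = 0.00694) without overlap. The value was smaller as the mean of its probe sets (-0.84, limma adjusted p = 0.0316) and with poly-A centring (-0.75, limma adjusted p = 0.0498). Of 8 measured genes of the wider family, 3 were higher in TDECC and 2 lower (62.5% called, against 42.7% of all genes), or 6 higher and 2 lower with poly-A centring. Sigirr, a receptor of the family that dampens signalling, read 8.13, 8 and 7.89 against 5.01, 5.31 and 5.32 and was higher by 2.79 (limma adjusted p = 6.47e-06). Il36rn, a receptor antagonist of the family, was higher by 1.83 (7.19 ± 0.40 against 5.36 ± 0.13, SD, n = 3). Il33, an epithelial alarm cytokine of the family, was higher in TDECC by 5.93, and its receptor Il1rl1 was lower (-8.48, or -5.52 as the mean of its probe sets). Il18bp, a soluble protein that neutralises interleukin 18, stood at 6.13 and 6.19 and did not pass; Il18r1 was not analysed here.

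**Figure D3:**
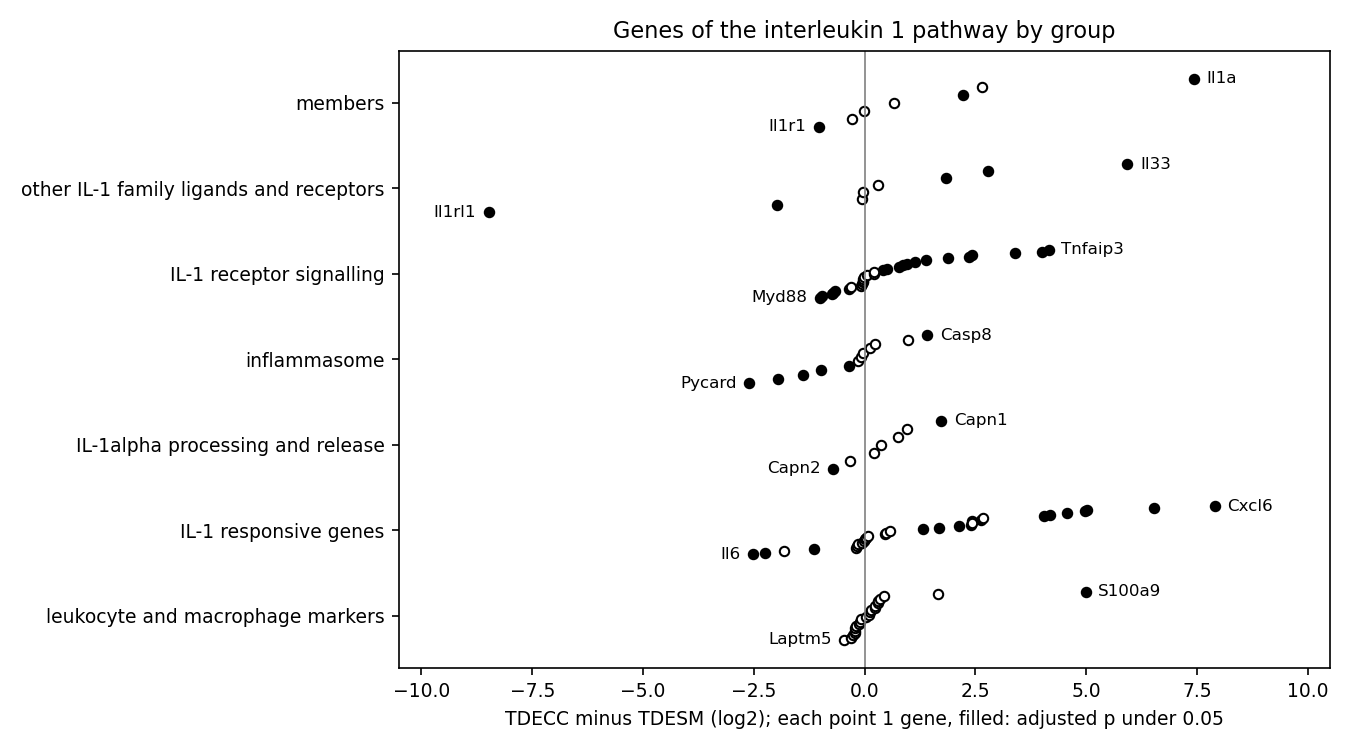
Difference between strains, TDECC minus TDESM (log2), for each measured gene of 7 groups of the interleukin 1 pathway; filled points passed an adjusted p of 0.05 in limma and vertical position within a group only separates points. Points of the responsive genes reach from Il6 at -2.52 to Cxcl6 at 7.90, and most leukocyte markers lie near 0 except S100a9 at 4.99.

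Among 29 measured genes that carry the signal from the receptor to NF-kB, 13 were higher in TDECC, 6 lower and 10 did not pass (65.5% against 42.7% of all genes), with a median difference of 0.22. With poly-A centring the split was 24 higher and 0 lower. The 3 genes with the largest increases by their brightest probe set are known to be induced by NF-kB and to regulate it. Tnfaip3, the ubiquitin-editing protein A20, read 11.09, 11.66 and 13.32 in TDECC and 7.59, 7.91 and 8.08 in TDESM, a difference of 4.16 (SE 0.53, limma adjusted p = 7.34e-04). Nfkbia, the NF-kB inhibitor I-kappa-B alpha, read 11.02, 12.25 and 13.41 against 8.01, 8.12 and 8.51, a difference of 4.01 (SE 0.55). Nfkbiz, a nuclear cofactor induced by interleukin 1, read 10.27, 10.15 and 12.66 against 8.01, 7.61 and 7.26, a difference of 3.40 (SE 0.65), or 1.79 as the mean of its probe sets. None of these overlapped between strains, and each was highest on TDECC replicate 3. Irak2, a kinase of the receptor complex, was higher by 2.43 (limma adjusted p = 0.0104). It read 5.89, 8.24 and 7.45 in TDECC, highest on replicate 2.

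Myd88, the adaptor of the receptor, read 8.43, 9.10 and 8.81 in TDECC and 9.76, 9.73 and 9.88 in TDESM, a difference of -1.01 (SE 0.18, limma adjusted p = 0.00395). Irak3, the kinase homologue that restrains the pathway, differed by -0.96, Mapk14, the p38 alpha kinase, by -0.73 and Irak1 by -0.67. All 4 signs turned with poly-A centring, to 0.21, 0.26, 0.49 and 0.55 in that order. Traf6, the ubiquitin ligase downstream of the Irak kinases, stood at 7.72 and 7.78 (difference -0.06, limma adjusted p = 0.713).

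Of 30 measured genes known to respond to interleukin 1, 13 were higher in TDECC, 3 lower and 14 did not pass (53.3% called, against 42.7% of all genes), with a median difference of 0.95. With poly-A centring 26 were higher and 2 lower. Cxcl6, a neutrophil chemokine, read 12.80, 10.90 and 12.91 in TDECC against 4.17, 4.33 and 4.40 in TDESM, a difference of 7.90 (SE 0.51). Cxcl2, another, read 9.70, 8.17 and 12.67 against 3.76, 3.61 and 3.55, a difference of 6.54 (SE 1.01, limma adjusted p = 0.00187). Ccl20, which attracts dendritic cells and Th17 cells, read 7.14, 9.26 and 11.86 against 4.32, 4.67 and 4.21, a difference of 5.02 (SE 1.05, limma adjusted p = 0.00744). These groups did not overlap, although TDECC arrays differed among themselves by several log2 units.

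Il6 and Ccl2 were low in TDECC. Il6, a cytokine of inflammatory fibroblasts, read 3.64, 3.40 and 3.83 there and 6.29, 5.82 and 6.31 in TDESM, a difference of -2.52 (SE 0.19, limma adjusted p = 4.80e-05). Ccl2, a monocyte chemokine, differed by -2.26 (3.85 ± 0.29 against 6.11 ± 0.08, SD, n = 3), and the related Ccl7 by -1.15, which turned to 0.07 with poly-A centring. Il6 and Ccl2 stayed past the threshold in that setting, at -1.30 and -1.03.

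Further genes of this group did not pass. Cxcl1 read 11.98, 9.77 and 14.07 in TDECC against 9.75, 9.69 and 9.10 in TDESM (difference 2.43, limma adjusted p = 0.0848). It passed without TDECC replicate 2 (3.51, limma adjusted p = 0.00482) and was 1.36 without TDECC replicate 3 (limma adjusted p = 0.143). Ptgs2, the inducible cyclooxygenase, read 7.42, 9.21 and 11.27 against 11.41, 11.25 and 10.71 (difference -1.82, limma adjusted p = 0.140). It passed without TDECC replicate 3 (-2.81, limma adjusted p = 0.00801) and was -0.88 without TDECC replicate 1 (limma adjusted p = 0.279). Lcn2, lipocalin 2, stood at 3.77 and 3.82 (limma adjusted p = 0.801), low in both strains although it is a known NF-kB target.

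The TDECC arrays differed from one another in this system, which was examined after the values had been seen. The SD over TDECC arrays exceeded that over TDESM arrays for 6 of the 7 genes, as it did for 77.3% of all genes. Il1a was highest on TDECC replicate 3 and lowest on replicate 2, whereas Il1rn and Casp1 were highest on replicate 2 and lowest on replicate 1. Of the 13 responsive genes whose TDECC arrays spanned at least 1 log2 unit, 10 were highest on replicate 3, namely Cxcl1, Cxcl2, Cxcl3, Cxcl6, Tnf, Ccl20, Ptgs2, Vcam1, Birc3 and Irf1. Among all 1969 genes with such a span, 22.9% were highest on that array. The 6 signalling genes with such a span were split, 3 highest on replicate 3 and 3 on replicate 2. Replicates have no order and the labels name no difference between these arrays, so this is a description of 3 arrays.

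**Figure D4:**
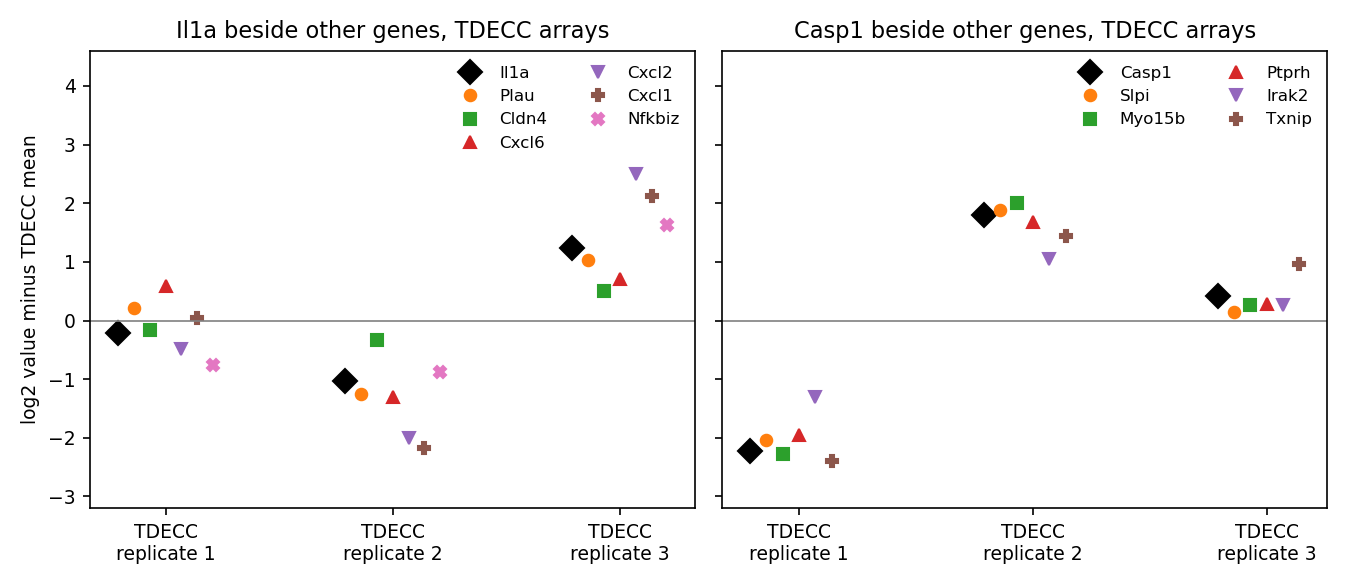
Log2 value minus the TDECC mean on the 3 TDECC arrays for Il1a (left) and Casp1 (right), each with its 3 nearest genes by profile and further pathway genes chosen after their values were seen; points are shifted sideways only to separate them. Il1a and its companions lie highest on replicate 3 and lowest on replicate 2, while Casp1 and its companions are highest on replicate 2 and lowest on replicate 1.

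The genes most like each called member were found by the root mean square difference between profiles over 6 arrays, each profile centred on its own mean. For Il1a they were Plau, urokinase (0.292 log2 units), Cldn4, a tight junction protein (0.424), and Cxcl6 (0.499). Plau read 12.35, 10.89 and 13.17 in TDECC and 4.32, 4.39 and 4.52 in TDESM, the same order of TDECC arrays as Il1a. The choice by profile on these arrays favours such a shared order, so it is no separate finding. For Il1rn they were Ltb, lymphotoxin beta (0.106), Abcd3, a peroxisomal transporter (0.117), and Sowahc (0.128). For Il1r1 they were Cenpl, a centromere protein (0.0309), Prpf38a, a splicing factor (0.0668), and Ifrd1 (0.0717). Their signs turned with poly-A centring like that of Il1r1. This follows from their similar differences, because that centring moves every gene by the same amount. Casp1 was not called; the genes nearest to it, looked up after its values were seen, were Slpi, a secreted protease inhibitor (0.189), Myo15b (0.192) and Ptprh (0.245). Slpi read 5.48, 9.40 and 7.65 on the TDECC replicates, near the TDESM values of 5.11, 4.97 and 4.81 on replicate 1 alone, as Casp1 was. That likeness too is favoured by the choice by profile.

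Genes beside the members on the chromosome differed from them in part. In the RefSeq order of protein-coding genes, the 3 nearest on each side of each member gave 31 genes outside the 7, of which 24 were measured and 10 passed (41.7%, against 42.7% of all genes). Beside Il1a and Il1b, Slc20a1, a phosphate transporter, was lower in TDECC (-1.56, or -0.34 and not past the threshold with poly-A centring), and no other measured neighbour of that pair outside the 7 passed. Beside Il1rn, Psd4 (2.62), Il36rn (1.83) and Pax8 (1.46) were higher in TDECC like Il1rn itself, whereas the other 2 measured neighbours did not pass. Il1r1 and Il1r2 lie in one cluster with Il1rl1, and Map4k4 on its edge differed by -0.74, or -0.40 as the mean of its probe sets and 0.48 with poly-A centring. Casp1, itself not called, stands next to Casp4, which was lower in TDECC (-0.98). With poly-A centring both were higher in TDECC, Casp4 by 0.24 and Casp1 by 3.88, and Casp4 did not pass. The 5 further neighbours of Casp1 differed by -0.31 to 0.13 and did not pass. Beside Il18, Plet1 was higher in TDECC by 4.78 and Sdhd by 0.47, and Pts was lower (-0.69, or 0.53 with poly-A centring). Some calls among these neighbours with small differences were lost with 1 array left out. That of Map4k4 was lost without TDESM replicate 1 or 2 and that of Sdhd without any 1 TDESM replicate. That of Pts was lost without any 1 array except TDECC replicate 3 (limma adjusted p up to 0.064, 0.0739 and 0.102 in that order). Without 1 TDESM replicate fewer genes of the whole table passed as well, 4605 to 4835 against 6065.

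Macrophages are a common source of interleukin 1 and its antagonist, so their markers were read on the same arrays. Of 22 measured leukocyte and macrophage markers, 1 was higher in TDECC and 0 lower (4.55% called, against 42.7% of all genes). The exception was S100a9, a calcium-binding protein that epithelial cells also make, at 6.27, 9.34 and 9.75 in TDECC and 3.58, 3.57 and 3.23 in TDESM (difference 4.99, limma adjusted p = 0.00285). Cd14 read 8.65, 10.88 and 11.64 against 8.63, 8.67 and 8.90 and did not pass (limma adjusted p = 0.0991). It passed without TDECC replicate 1 (2.53, limma adjusted p = 3.41e-04) and was 1.03 without TDECC replicate 3 (limma adjusted p = 0.236). The defining markers Ptprc, CD45, at 3.68 in TDECC and 3.80 in TDESM, and Cd68 at 5.22 and 4.93, did not pass. With poly-A centring all 22 markers were higher in TDECC and passed. RMA gives no value of 0, so no marker was at 0. Summed on the linear scale the list came to between 969 and 4658 on TDECC arrays and between 968 and 1027 on TDESM arrays. Bright genes weigh most in such a sum, and the brightest on TDECC arrays were Cd14 and S100a9. They ranged over 2.99 and 3.48 log2 units there, and every other gene of the list over 1.67 or less. The list's part in the differences of Il1a and Il1rn was not tested. Of 9 endothelial markers 1 passed (11.1%, against 42.7% of all genes), or 9 higher with poly-A centring. It was Pecam1, at 3.80 against 3.43 (difference 0.37, limma adjusted p = 0.0439), a call lost when any array except TDECC replicate 1 was left out.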

How the data were processed

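RNA of 6 arrays, 3 per strain, was compared; titles gave the strain and the replicate number. The deposited values are log2 signals. The submitters' processing notes name RMA and no version. The 57 control probe sets were set aside, and 20826 probe sets naming 1 gene symbol gave 14217 genes, each read by the brightest of its probe sets over the 6 arrays. Differences, TDECC minus TDESM, were tested two-sided with limma 3.58.1 in R 4.3.3 (lmFit, eBayes; Benjamini-Hochberg, threshold 0.05), without a replicate block or filter; the limma step was tested on simulated data. The members, the gene lists (162 of 194 symbols measured) and the alternatives were chosen with earlier results of these data known. The text names the members, 25 fixed pathway genes where measured, the 3 largest differences each way per list, the 3 genes nearest each called member by profile and the 3 nearest protein-coding neighbours on each side; neighbours that did not pass are given by count and range in place of names. Deviations of same-numbered arrays correlated at -0.07, 0.02 and -0.14, so the numbers were not taken as pairs. No 2 arrays shared over 5.74% of values. Alternatives changed scaling, filter, probe set choice, eBayes settings, a replicate block, a minimum difference of 1 and each array left out in turn. The number of arrays limits the precision.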

Additional observations from a re-analysis of the deposited data

How the results depend on the processing

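Il1a, Il1rn and Il1r1 passed under each of the 15 alternatives, except Il1r1 centred on the poly-A controls. Leaving out each array in turn, Il1a lay between 6.81 and 7.95, Il1rn between 1.95 and 2.54, Il1r1 between -1.14 and -0.87, Casp1 between 1.76 and 3.76, Il18 between 0.36 and 0.81 and Il1b between -0.12 and 0.15. Casp1 (2.65) also passed with the replicate block (limma adjusted p = 0.0315) and without the dimmest 33.3% of genes. It stayed in that filter, set on the mean over all arrays, through its high TDECC values, so that pass is no separate support. The replicate block, whose numbers were not taken as pairs, gave 0 called endothelial markers and kept all other counts within 1.5 times. Without the dimmest 33.3% of genes Il1b, Il1r2 and Il18 were not tested and 0 endothelial markers were left to test. Centred on the poly-A controls, limma's SE was 0.37 for every gene, so adjusted p there follows the size of the difference. This centring takes the same value from all genes of an array. Every difference thus moved up by the same 1.22, and small negative ones had to turn sign. In that setting 11771 genes passed, 10873 higher and 898 lower in TDECC; so did 6 of the 7 members, 8 wider family genes, 24 signalling genes (24 higher), 9 inflammasome genes (8 higher), 6 processing genes, 28 responsive genes (26 higher), 22 leukocyte markers and 9 endothelial markers. Il1b was then 1.21, Il1r1 0.19, Il1r2 0.94, Il18 1.88 and Casp1 3.88. Signs also turned for Il18bp (1.16), Myd88 (0.21), Irak1 (0.55), Traf6 (1.16), Casp4 (0.24), Capn2 (0.51), Lcn2 (1.18), Ptprc (1.11), Irak3 (0.26), Mapk14 (0.49), Ccl7 (0.075), Cenpl (0.17), Prpf38a (0.21), Ifrd1 (0.23), Map4k4 (0.48) and Pts (0.53). Lcn2 lay between -0.09 and 0.03 over the arrays left out. Centred on housekeeping genes, 2 leukocyte and 0 endothelial markers passed. With a minimum log2 difference of 1, 3621 genes passed (1716 higher, 1905 lower), with 9 signalling genes, 1 processing gene and 0 endothelial markers. Over the arrays left out in turn, 3 to 5 members, 1 to 4 processing genes, 1 to 2 leukocyte markers and 0 to 1 endothelial markers passed. Why the poly-A controls read differently between strains was not tested, nor was the cause of the changes in the other settings.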
